A study of Mus musculus with 6 samples.

Results

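Heat shock proteins, their co-chaperones and a set of glucocorticoid response genes were compared between left and right entorhinal cortex (EC), a cortical area that relays signals between the neocortex and the hippocampus. Members were taken by gene symbol from the authors' deposited table of all genes. They comprise the Hspa, Hsp90, Hspb, Hspd, Hspe and Hsph1 proteins, the heat shock factors (Hsf), the J-domain proteins (Dnaja, Dnajb, Dnajc), the Bag proteins, the Cct subunits, and 9 genes known to respond to glucocorticoids or to encode their receptors. The rule found 72 genes among the 18746 of that table, 67 of them chaperone or heat shock genes in 10 classes and 5 of them glucocorticoid genes. Of the 102 protein-coding RefSeq symbols that match, the other 30 were not analysed here, including Hsp90aa1, Hspd1, Hsph1, Fkbp5, Tsc22d3, Errfi1 and Nr3c2.

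The left group and the right group each held 3 samples of wild-type C57BL/6 mice aged 6 months that had received no treatment, and the labels call them biological replicates. Each sample of total RNA was run on 1 array of the type Affymetrix Mouse Gene 2.0 ST. Whether any mouse gave both a left and a right sample is not stated, and p-values measure the spread between these samples. The per-array log2 signals carry row numbers with no gene names in the sources used here, so a named gene has 1 left-over-right fold and 1 p-value (p below, as deposited unless stated), with no level, replicate spread or interval. For the same reason the levels of tissue markers could not be checked. Positive log2 folds are read as higher in left EC, since left is named first in the heading of the authors' deposited table, and its extreme log2 fold, -2.48, is close to the extreme left-minus-right difference of the per-array rows, also -2.48.

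Chaperones bind proteins that are not yet folded or have lost their fold. Hsp70 proteins (the Hspa genes) work in cycles of ATP use that J-domain proteins start and Bag proteins help to end, Hsp90 matures client proteins such as steroid receptors, the Cct ring folds actin and tubulin, and small heat shock proteins (Hspb) hold unfolded proteins. Heat shock factors switch on the inducible members when unfolded proteins accumulate. Glucocorticoids act through the receptors encoded by Nr3c1 and Nr3c2, which Hsp90 complexes keep ready to bind hormone, and both systems respond to stress and handling in the brain.

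No member passed the test across all genes. Of the 72 members 0 had an adjusted p under 0.05, as did 0% of all genes (Benjamini-Hochberg adjustment over the whole of the authors' deposited table). At an unadjusted p under 0.05 there were 4 members (5.56%), against 7.87% of all genes, and the members' share was thus no higher than the background. All 4, Hspa1b, Hsf2, Hspa2 and Cdkn1a, were higher in left EC, where 3.77% of all genes had such a p, and 0 members were higher in right EC, where 4.10% of all genes had one. With the rows of a gene kept apart the count was 6 of 81 member rows (7.41%), against 8.13% of all rows. Of these 6, Hspa8 was higher in right EC and the other 5, now with Hspa12a, in left EC. At an unadjusted p under 0.01 there were 0 members, against 1.58% of all genes.

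The folds of the members were small. Hspa1b, at 1.17-fold higher in left EC, had the largest fold, and 4.14% of all genes of the authors' deposited table lay further from equality. A fold over 1.1 either way was found for 3 members (Hspa1b, Cdkn1a and Dnajb3, or 4.17%), against 14.0% of all genes, and a fold over 1.2 for 0 members, against 2.58% of all genes. Both fold limits were chosen after the values were seen. The median size of the log2 fold, without its sign, was 0.03 for the chaperone members, 0.08 for the glucocorticoid members and 0.05 for all genes outside the members. Chaperone members therefore lay nearer to equality than the other genes at their medians, and the 5 glucocorticoid members lay further from it. These differences were not tested. For scale, the median half-width of a limma 95% interval was 0.14 on the log2 scale, or 1.1-fold, over the per-array rows above the median signal and 0.18 over all rows, and where the members lie in signal is unknown. The log2 folds of Hspa1b, Cdkn1a and Dnajb3 exceeded the first value in size, and that of Hspa1b alone the second. Neither value is the interval of a named gene. Dnajb3 exceeded the first with a deposited p of 0.107, while Hsf2 and Hspa2, with an unadjusted p under 0.05, did not.

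**Figure D1:**
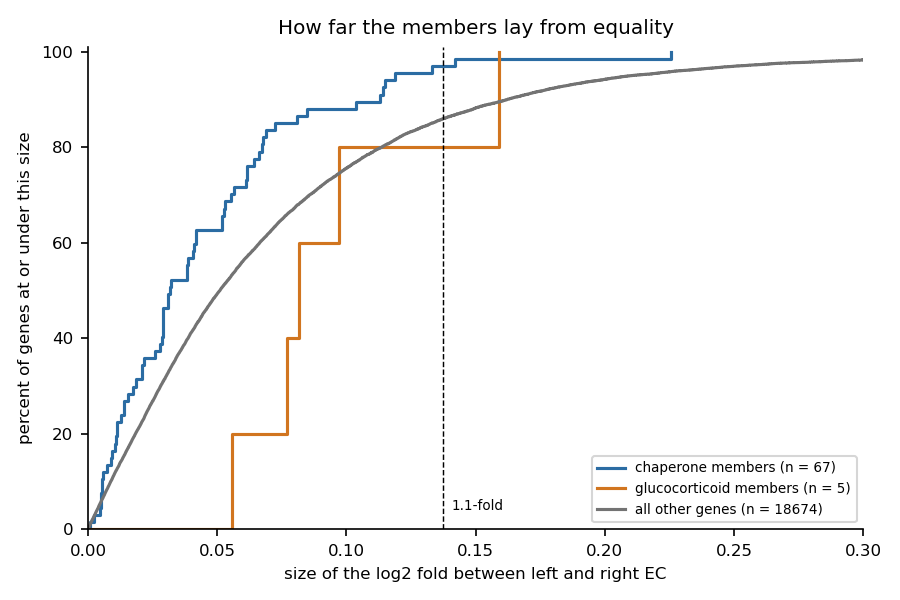
Cumulative share of genes (y axis, percent) at or under a given size of the log2 fold between left and right EC (x axis), for the 67 chaperone members, the 5 glucocorticoid members and the 18674 other genes. The chaperone curve runs above that of the other genes except close to 0, and most members lie left of the dashed line at 1.1-fold, while the smallest size of a glucocorticoid member is 0.06 (Nr3c1).

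By direction, 39 of the 67 chaperone members were higher in left EC and 28 in right EC, with a median log2 fold of 0.01 and middle quartiles from -0.02 to 0.05. Of the 5 glucocorticoid members 2 were higher in left EC and 3 in right EC, with a median of -0.08. Over all genes 54.0% were higher in left EC, with a median of 0.01. The medians of the chaperone classes ran from -0.01 for Dnajc to 0.05 for Hspb, all nearer to 0 than that of the glucocorticoid genes. With 5 glucocorticoid genes that median is the value of a single gene, Hif3a, and the difference between the groups was not tested. The mean log2 fold of the glucocorticoid members was -0.008, against 0.01 for the chaperone members.

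**Figure D2:**
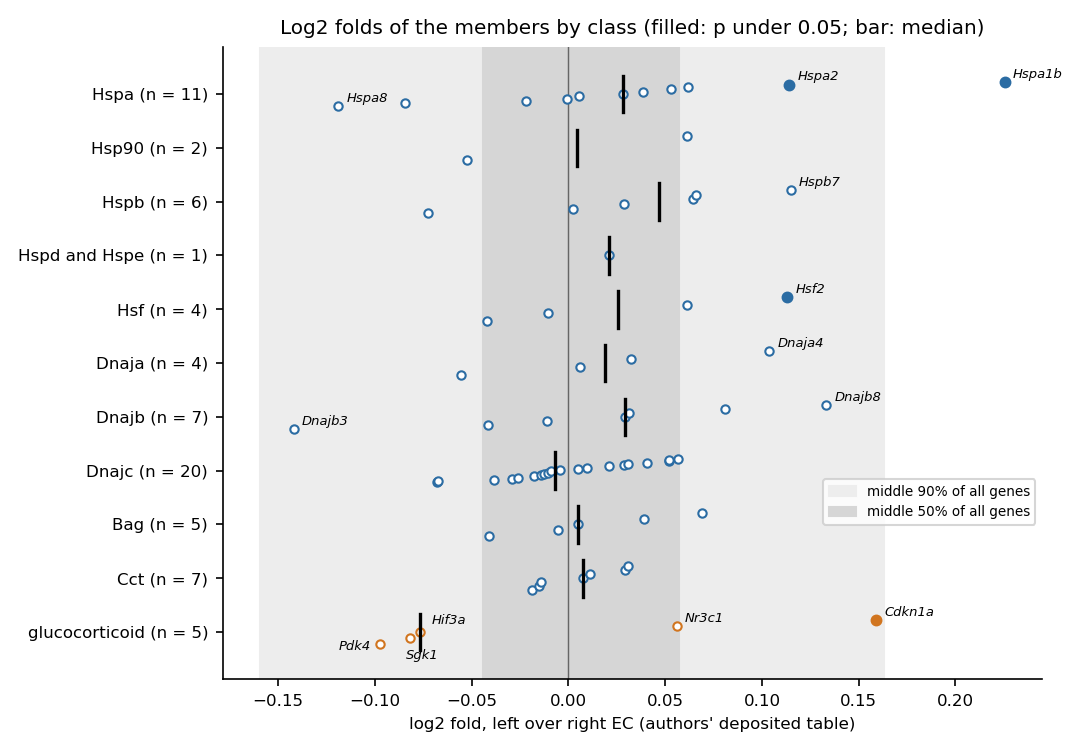
Log2 folds of left over right EC (x axis) for the 72 members, 1 point per gene, by class (y axis, with the number of genes). Filled points have an unadjusted p under 0.05, black bars are class medians, and grey bands hold the middle 90% and middle 50% of all genes. Only Hspa1b lies outside the wider band, and class medians lie close to 0 except for the glucocorticoid genes at -0.08 (mean -0.008, not drawn).

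The Hsp70 genes were the chaperone class with the widest range. Of 11 measured genes 7 were higher in left EC and 4 in right EC, the log2 folds having a median of 0.03 and values from -0.12 to 0.23. The stress-inducible Hspa1b was 1.17-fold higher in left EC by the authors' deposited table (p = 0.0138, adjusted p = 0.600). Hspa2, best known from spermatogenesis and also present in brain, was 1.08-fold higher in left EC by the authors' deposited table (p = 0.0495, adjusted p = 0.634). The constitutive cytosolic Hsp70, Hspa8, ran the other way, with a mean log2 fold of -0.12 over its 3 rows, or 1.09-fold higher in right EC (p = 0.0801, from the mean z of its rows in the authors' deposited table). Its rows in the authors' deposited table were 1.12-fold (p = 0.0404), 1.1-fold (p = 0.05) and 1.04-fold (p = 0.215) higher in right EC, all in 1 direction. Thus Hspa1b and Hspa8 lay on opposite sides, neither passed adjustment, and the difference between them was not tested. They are single genes, and Hspa1a, which encodes nearly the same protein as Hspa1b, had a log2 fold of 0.03.

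Hspa1a encodes nearly the same protein as Hspa1b, and the genes lie side by side on chromosome 17 in the GRCm38.p6 annotation, followed by the testis gene Hspa1l. Hspa1a was 1.02-fold higher in left EC by the authors' deposited table (p = 0.746), and Hspa1l had a log2 fold of 0.01 (p = 0.944). Array probes may not tell Hspa1a from Hspa1b, so the split of signal between them is uncertain, and the 1.17-fold of Hspa1b was not matched by its copy. The difference between the folds of Hspa1b and Hspa1a was not tested. The promoters of both are shown because they hold the same control element. The 250 bases before each start (RefSeq, GRCm38.p6, minus strand) are given 5′ to 3′, with the 2-unit heat shock element in capitals.
Hspa1b, chr17:34959239-34959488: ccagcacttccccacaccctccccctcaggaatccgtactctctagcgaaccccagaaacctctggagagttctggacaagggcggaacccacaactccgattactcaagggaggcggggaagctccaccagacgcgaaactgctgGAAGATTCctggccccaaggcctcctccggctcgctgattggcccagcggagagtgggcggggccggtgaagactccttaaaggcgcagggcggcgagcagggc
Hspa1a, chr17:34972157-34972406: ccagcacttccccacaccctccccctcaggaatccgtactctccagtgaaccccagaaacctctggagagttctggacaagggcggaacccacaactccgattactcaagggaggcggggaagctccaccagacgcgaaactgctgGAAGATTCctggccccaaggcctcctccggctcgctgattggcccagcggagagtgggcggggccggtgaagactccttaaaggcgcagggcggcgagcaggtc
The stretches differ at 3 of 250 bases, and the element lies at the same place in both, with its first base 104 bases before the start.

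Among the other Hsp70 genes, Hspa13, an endoplasmic reticulum (ER) form, was 1.06-fold higher in right EC by the authors' deposited table (p = 0.0858). Hspa4, a nucleotide exchange factor of the Hsp110 type, was 1.04-fold higher in left EC by the authors' deposited table (p = 0.153), and the mitochondrial Hspa9 was 1.03-fold higher in left EC (p = 0.35). Hspa5, the ER Hsp70 also called BiP, was 1.02-fold higher in right EC by the authors' deposited table (p = 0.608). Hspa12a had rows on both sides of equality, 1.08-fold higher in left EC (p = 0.0287) and 1.01-fold higher in right EC (p = 0.819) in the authors' deposited table. Its mean log2 fold was 0.05 (p = 0.327, from the mean z of its rows in the authors' deposited table), so the low p of 1 row was not shared by the other.

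Of the Hsp90 genes the cytosolic Hsp90ab1, part of the steroid receptor complex, was 1.04-fold higher in left EC (p = 0.177) and the ER form Hsp90b1 was 1.04-fold higher in right EC (p = 0.225) in the authors' deposited table. Hspe1, the mitochondrial co-chaperonin that caps the Hsp60 ring, was 1.01-fold higher in left EC by the authors' deposited table (p = 0.673). The Hspe1 promoter is shown because it holds a 3-unit heat shock element. In the stretch below (RefSeq, GRCm38.p6, plus strand, from 129 to 25 bases before the start) the capitals mark a run of alternating units.
Hspe1, chr1:55088019-55088123: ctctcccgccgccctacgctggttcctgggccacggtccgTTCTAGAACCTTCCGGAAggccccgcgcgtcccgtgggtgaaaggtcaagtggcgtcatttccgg
Among the 61 members with a promoter window it was the only one with such a run, and its fold was close to 1.

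Of the small heat shock genes 5 of 6 measured ones were higher in left EC, at a median log2 fold of 0.05, and 0 had an unadjusted p under 0.05. Over all genes 54.0% were higher in left EC and 7.87% had such a p. Hspb7, a cardiac and muscle form, was 1.08-fold higher in left EC by the authors' deposited table (p = 0.251), and Hspb2, another muscle form, was 1.05-fold higher in left EC (p = 0.508). Hspb8, which acts with Bag3 in the clearance of misfolded proteins, was 1.05-fold higher in right EC by the authors' deposited table (p = 0.465). The stress-inducible Hspb1 had a mean log2 fold of 0.03 over 2 rows (p = 0.626, from the mean z of its rows in the authors' deposited table).

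Of the heat shock factors Hsf2, which is known from development and works beside Hsf1, was 1.08-fold higher in left EC by the authors' deposited table (p = 0.0343, adjusted p = 0.63). Hsf1, the main switch of the heat shock response, was 1.01-fold higher in right EC by the authors' deposited table (p = 0.794). Hsf5, a testis factor, was 1.03-fold higher in right EC (p = 0.578), and Hsf2bp, which the symbol rule includes although it encodes a protein that binds Hsf2 and not a factor, was 1.04-fold higher in left EC (p = 0.483) in the authors' deposited table. The promoter matches for the element that Hsf1 binds are given further on.

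J-domain proteins were the largest group, with 31 genes, of which 16 were higher in left EC and 15 in right EC, with a median log2 fold of 0.00. Of the 31 genes 0 had an unadjusted p under 0.05, against 7.87% of all genes. Dnaja4 was 1.07-fold higher in left EC by the authors' deposited table (p = 0.0546), while Dnaja1, a main cytosolic partner of Hspa8, was 1.04-fold higher in right EC (p = 0.192) and Dnaja2, of the same type, 1.02-fold higher in left EC (p = 0.419). Among the Dnajb genes Dnajb11, an ER partner of Hspa5, was 1.06-fold higher in left EC by the authors' deposited table (p = 0.0928). The stress-inducible Dnajb1 was 1.02-fold higher in left EC by the authors' deposited table (p = 0.521), and Dnajb2, a form known from neurons, was 1.03-fold higher in right EC (p = 0.353). The testis gene Dnajb3 was 1.1-fold higher in right EC by the authors' deposited table (p = 0.107), and Dnajb8, also from testis, had a mean log2 fold of 0.13 over rows that were 1.16-fold and 1.04-fold higher in left EC (p = 0.206, from the mean z of its rows in the authors' deposited table).

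The 20 Dnajc genes had a median of -0.01 on the log2 scale and values from -0.07 to 0.06, which is narrow beside the middle 90% of all genes, from -0.16 to 0.16. Dnajc24 had a fold of 1.05 with right EC higher in the authors' deposited table (p = 0.134), as did Dnajc9, a histone co-chaperone (p = 0.336), and Dnajc18 was 1.04-fold higher in left EC (p = 0.23). Dnajc6, the neuronal auxilin that uncoats clathrin vesicles with Hspa8, had a log2 fold of 0.00 in the authors' deposited table (p = 0.911), unlike the -0.12 of Hspa8 itself. The ER protein Dnajc3, which also inhibits the kinase of the unfolded protein response, was 1.01-fold higher in right EC by the authors' deposited table (p = 0.807).

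Bag proteins, several of which release substrates from Hsp70, numbered 5, with a median log2 fold of 0.01. Bag2 was 1.05-fold higher in left EC by the authors' deposited table (p = 0.269), Bag1 1.03-fold higher in left EC (p = 0.416) and the stress-inducible Bag3 1.03-fold higher in right EC (p = 0.54). The Cct genes were the class closest to equality, with 7 genes between -0.02 and 0.03 and a median size of 0.02. Cct8l1, a copy related to Cct8, was 1.02-fold higher in left EC by the authors' deposited table (p = 0.646), as was Cct7 (p = 0.675), and Cct8 and Cct2 both had log2 folds of 0.01 (p = 0.791 and 0.864). No other class with over 1 gene had so narrow a range.

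**Figure D3:**
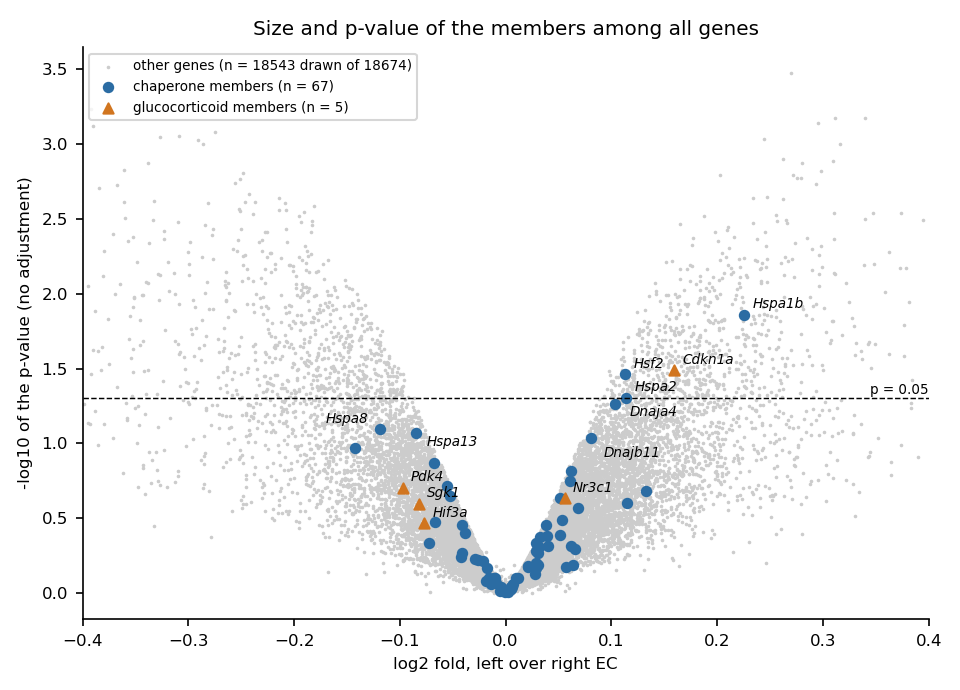
Log2 fold of left over right EC (x axis, shown from -0.4 to 0.4) against -log10 of the unadjusted p-value (y axis) for the 67 chaperone members, the 5 glucocorticoid members and 18543 of the 18674 other genes. The dashed line marks the threshold of 0.05, above which Hspa1b, Hsf2, Hspa2 and Cdkn1a lie, all at positive log2 folds, amid many other genes.

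The glucocorticoid genes lay on both sides. Cdkn1a, a cell cycle inhibitor that p53 and glucocorticoids both induce, was 1.12-fold higher in left EC by the authors' deposited table (p = 0.0324, adjusted p = 0.624). Nr3c1, the glucocorticoid receptor, was 1.04-fold higher in left EC by the authors' deposited table (p = 0.232). The other members were higher in right EC, with Pdk4, a kinase that limits the use of pyruvate, at 1.07-fold (p = 0.198), Sgk1, a kinase that acts on ion transport, at 1.06-fold (p = 0.252) and Hif3a, an inhibitor of the hypoxia response, at 1.05-fold (p = 0.342) in the authors' deposited table. Of these 5 genes only Cdkn1a had an unadjusted p under 0.05 (20%), against 7.87% of all genes.

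A glucocorticoid response element (GNACA and TGTNC with 3 bases between) was found in 1 of the 4 glucocorticoid members that have a promoter window, Sgk1, which is also 1 of the 61 members with a window (1.64%), against 0.537% of all genes with a window. Sgk1 has 6 annotated starts, and the match lay before 1 of them. It is shown because Sgk1 is the classic hormone target among the measured members, with the element in capitals (RefSeq, GRCm38.p6, plus strand, from 228 to 129 bases before that start).
Sgk1, chr10:21993662-21993761: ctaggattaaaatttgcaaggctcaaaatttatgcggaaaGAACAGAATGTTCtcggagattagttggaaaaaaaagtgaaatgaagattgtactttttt
The absence of a match in the other windows says only that these letters are not within them.

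Other genes of hormone handling and response, from a related list, had 0 of 16 measured genes with an unadjusted p under 0.05, against 7.87% of all genes. Of these 13 (81.25%) were higher in left EC, against 54.0% of all genes. Their median log2 fold was 0.03, against the median of -0.08 for the 5 members. Crhr1, the receptor for corticotropin-releasing hormone, was 1.09-fold higher in left EC by the authors' deposited table (p = 0.0944), Klf9, a transcription factor that glucocorticoids induce, was 1.05-fold higher in left EC (p = 0.162) and the metallothionein Mt1 was 1.04-fold higher in right EC (p = 0.247). The median of the larger list thus had the opposite sign to that of the 5 members, a difference that was not tested. By the mean, the list was at 0.03 and the 5 members were at -0.008.

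Partner proteins of Hsp90 and Hsp70 outside the symbol rule had 7 of 16 measured genes higher in left EC, with a median log2 fold of -0.01. Of the 16 genes 1 had an unadjusted p under 0.05 (6.25%), against 7.87% of all genes. That gene was Sugt1, a co-chaperone of Hsp90, at 1.09-fold higher in left EC by the authors' deposited table (p = 0.0342, adjusted p = 0.63). The prefoldin subunits Vbp1 and Pfdn1, which hand substrates to the Cct ring, were each 1.06-fold higher in right EC by the authors' deposited table (p = 0.106 and 0.113).

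Members of the ER were grouped after the values were seen. Of 8 soluble or lumen-facing ones 1 was higher in left EC, Dnajb11, and 7 in right EC, with a median log2 fold of -0.02 and 0 with an unadjusted p under 0.05. With the ER membrane J-domain proteins Dnajc14 and Dnajc18, both at a log2 fold of 0.05, it was 3 of 10 higher in left EC and 7 in right EC, with a median of -0.01, so the split depends on which genes are counted. Among all genes 54.0% were higher in left EC and 7.87% had an unadjusted p under 0.05. Of 7 mitochondrial members, grouped in the same way, 6 were higher in left EC, with a median of 0.02 and a range from -0.01 to 0.04. Other genes of ER folding and the unfolded protein response were split, with 6 of 11 higher in left EC and a median of 0.01. Among them Sil1, the exchange factor of Hspa5, was 1.07-fold higher in right EC by the authors' deposited table (p = 0.0769), Atf4, a transcription factor of the stress response, 1.05-fold higher in left EC (p = 0.179) and Eif2ak3, the ER stress kinase, 1.03-fold higher in left EC (p = 0.355).

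The ER stress element, CCAAT and CCACG with 9 bases between, was found in 3 of the 61 members that have a promoter window, Hspa5, Hsp90b1 and Dnajc3 (4.92%), against 0.137% of all genes with a window. They are shown because the element is the known control site of ER chaperone genes. Their log2 folds were -0.02, -0.05 and -0.01. The stretches have the elements in capitals (RefSeq, GRCm38.p6).
Hspa5, chr2:34771985-34772084, plus strand, from 105 to 6 bases before the start: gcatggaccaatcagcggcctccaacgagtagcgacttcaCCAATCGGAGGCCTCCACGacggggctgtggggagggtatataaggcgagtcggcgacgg
Hsp90b1, chr10:86705492-86705694, minus strand, from 250 to 48 bases before the start: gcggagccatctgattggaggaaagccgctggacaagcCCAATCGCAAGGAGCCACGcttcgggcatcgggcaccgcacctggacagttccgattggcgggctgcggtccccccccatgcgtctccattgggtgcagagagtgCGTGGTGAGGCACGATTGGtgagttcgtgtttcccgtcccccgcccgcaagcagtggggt
Dnajc3, chr14:118937787-118937886, plus strand, from 145 to 46 bases before the start: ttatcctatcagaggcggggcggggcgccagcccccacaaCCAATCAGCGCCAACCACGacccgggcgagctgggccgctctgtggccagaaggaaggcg
Hsp90b1 held the element once on each strand.

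The 2-unit heat shock element (GAANNTTC or TTCNNGAA) was found in 24.7% of the 77 member windows, against 15.1% of all windows, and its carriers were 18 of the 61 members with a window. The 3-unit element (3 alternating GAA and TTC units, each 2 bases apart, which holds 2-unit ones) was found in 1.30% of the member windows, that of Hspe1, against 0.603% of all windows. All motifs were searched on both strands over 250 bases before and 50 after each start. Carriers of the 2-unit element had a median log2 fold of 0.01, with 11 higher in left EC and 7 in right EC, and the 43 members without it also had a median of 0.01. Hspa1b and Cdkn1a, which were higher in left EC with an unadjusted p under 0.05, hold the element. So do Hspb8, where it lies after the start, and Sgk1, which were both higher in right EC. No match was found for Hsf2 or Hspa2, the other members with such a p, and 11 members had no window to search. In Sgk1 a 2-unit match overlaps the glucocorticoid response element. These motifs and promoters were chosen after their matches and the folds had been seen, and a match is a description of letters.

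**Figure D4:**
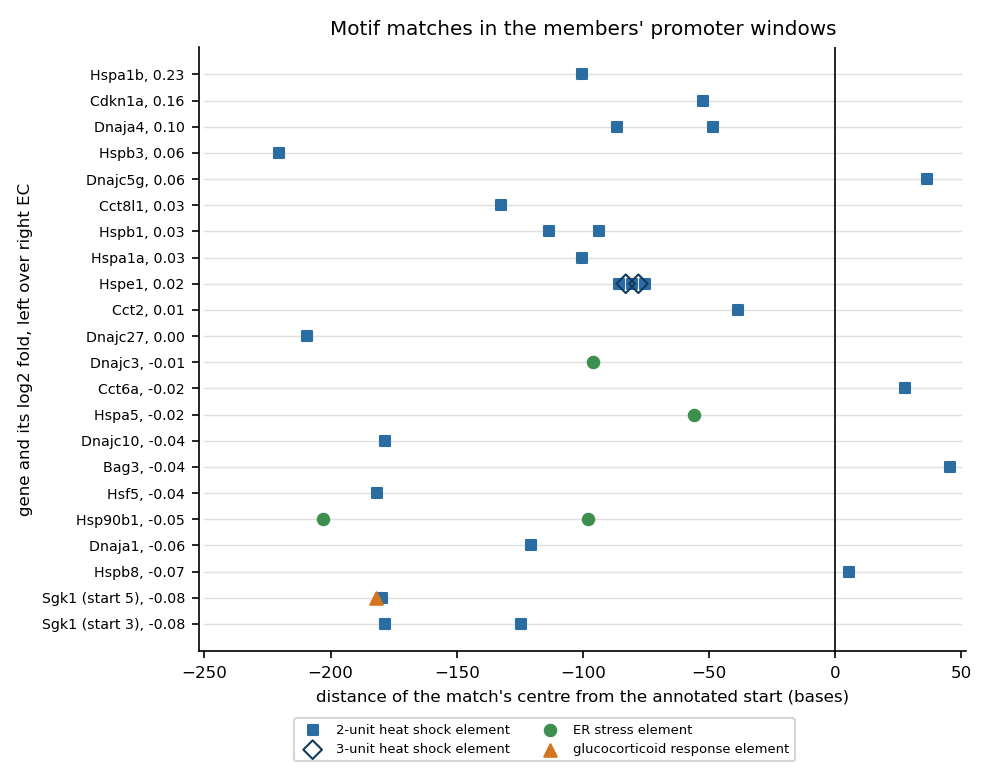
Motif matches in the promoter windows of the members that hold 1 (y axis, ordered by the log2 fold printed beside each name), by distance of the match's centre from the annotated start (x axis, bases). Squares are 2-unit and open diamonds 3-unit heat shock elements, circles ER stress elements and the triangle a glucocorticoid response element. Heat shock elements occur from the top of the list (Hspa1b, 0.23) to its bottom (Sgk1, -0.08), and the ER stress elements lie between -0.01 and -0.05.

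Several rows were present for 8 members, and 3 of these (Bag4, Dnajc8 and Hspa12a) had rows on both sides of equality, against 42.8% of all genes with several rows. Rows of Dnajb8 lay furthest apart, by 0.16 on the log2 scale, and those of Hspb1 closest, by 0.03. The median distance between the rows of a gene was 0.07 over the whole authors' deposited table, which is larger than the fold of most chaperone members.

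**Figure D5:**
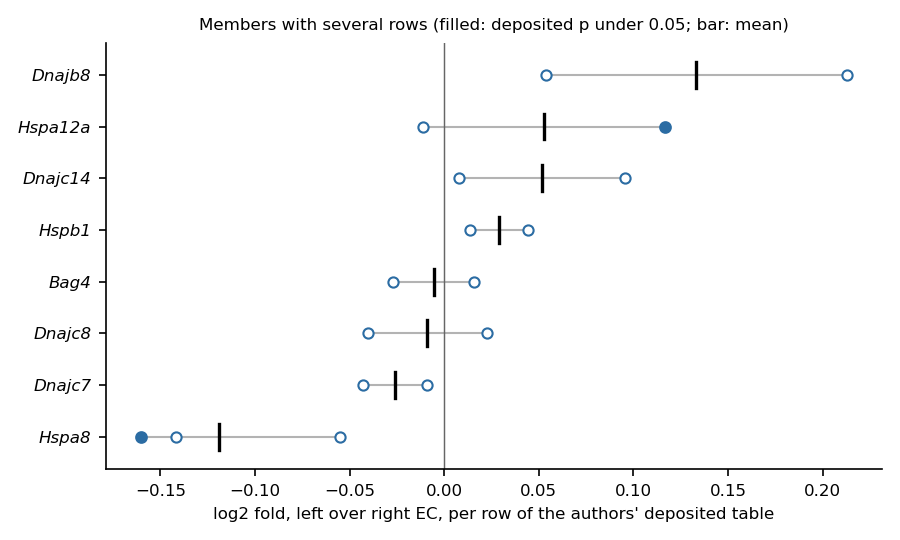
Log2 folds of left over right EC (x axis) for each row of the 8 members with several rows (y axis). Filled points have a deposited p under 0.05 and bars are the means used elsewhere. All 3 rows of Hspa8 lie to the right-higher side, from -0.16 to -0.06, while Hspa12a has rows at 0.12 and -0.01.

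Markers of other tissue and cell types differed in direction from list to list. All 6 measured choroid plexus markers were higher in right EC, with a median log2 fold of -1.12, and the 3 measured striatal markers were too, with a median of -0.20. The measured astrocyte (3), oligodendrocyte (3), interneuron (2) and mural (1) markers were all higher in right EC, with medians from -0.13 to -0.04. The 3 endothelial and 4 microglial ones had medians of -0.05 and -0.06. In each of these lists 0 genes had an unadjusted p under 0.05. The count was 5 for choroid plexus, 2 for striatal and 1 for excitatory neuron markers, and over all genes 7.87% had such a p. Excitatory neuron markers had a median of 0.07, with 3 of 4 higher in left EC, the 3 measured meningeal markers one of 0.06 and the 2 measured blood markers one of 0.21. Their part in the folds of the members was not tested, and fewer cells of a type cannot be told apart from less RNA per cell in dissected tissue.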

How the data were processed

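Total RNA of 3 left and 3 right EC samples was measured on 6 arrays. For 20414 rows the authors deposited p-values and signed folds (treated as a score, negative ones being minus the reciprocal ratio). They used Ingenuity iReport, per the series' design text. The sources used here do not name its test or normalization. The authors also deposited log2 signals of 41345 unnamed rows, with array medians of 7.24 to 7.28.

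Log2 folds, left over right, were computed from the signed folds. For genes with several rows the log2 folds and the signed z values of the deposited p were averaged, and p was taken from the mean z. Other p-values are as deposited. Adjustment was by Benjamini-Hochberg over 18746 genes, at 0.05. All members had an identifier in the GRCm38.p6 table. The per-array rows were fitted with limma 3.58.1 (R 4.3.3, lmFit and eBayes, 95% intervals). This test per named gene, planned first, could not be made without row names. Arrays being 3 per side limits the precision.

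Named genes were all glucocorticoid members, the 3 with the smallest p and the largest fold of each class, a fixed set, and 3 of each related list. Hspa1l, Hspa12a, Hspa13, Bag4, Dnajc8 and the genes of the compartment and testis groups were named after their values were seen. Members and lists were chosen with earlier results of these data known. Promoter windows (RefSeq, GRCm38.p6) were matched for 61 members (77 windows). Other motifs, among them cyclic AMP, TATA box, NF-Y and p53 elements and a single glucocorticoid receptor site, were also searched and are not reported. Scripts were tested on simulated data. Figures were drawn with matplotlib 3.10.9.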

Additional observations from a re-analysis of the deposited data

How the results depend on the processing

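For named genes only the handling of several rows, the members kept and the scale could be varied. The number of members with an adjusted p under 0.05 was 0 with each row kept and with the row of smallest p per gene. At an unadjusted p under 0.05 it was 6 with either, against 4 with rows averaged, the additions being Hspa8 (higher in right EC) and Hspa12a. That is 7.41% of 81 member rows, against 8.13% of all rows, and 8.33% of the members, against 8.63% of all genes by their smallest p. It was 4 of 63 without the 9 members known mainly from testis, and 3 of 62 without Hspa2 as well, against 7.87% of all genes. At an unadjusted p under 0.01 it was 0. Centred on the median of all genes, the chaperone median was 0.00060, against 0.0074 uncentred, and pooling the Hsp70, Hsp90 and Hspe1 genes gave a median of 0.0245. The glucocorticoid median was -0.08 in each alternative run, but these runs could say little about its stability. Each glucocorticoid member has a single row, so row handling could not change the median. Leaving out Nr3c1 or Cdkn1a, both higher in left EC, could not raise it, and no member higher in right EC was left out. The mean of the glucocorticoid members was -0.008. The alternatives added after the data were seen were the testis genes, the centring and leaving out Nr3c1 or Cdkn1a. Normalization, low-row exclusion, variance model, replicate block and leaving out arrays were not run for named genes, because per-array values have no names.

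Over the unnamed per-array rows limma called 0 after adjustment at 0.05, also under each alternative run, and 3023 at an unadjusted p under 0.05. The second count was 1808 when rows above the median signal alone were fitted (fewer rows tested), 2790 with the replicate block, 2104 to 3829 without 1 array, and 2961 to 3249 otherwise. Deviations of same-numbered arrays correlated at 0.02, -0.09 and 0.05, and those of differently numbered ones at -0.12 to 0.09. With 3 arrays per side these values cannot decide whether samples share a mouse. The numbers were not taken to pair samples because the labels do not say that same-numbered samples share a mouse.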

Other observations

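A group of members known mainly from testis was put together after the values were seen, and holds Dnajb3, Dnajb7, Dnajb8, Hspb9, Hspa1l, Dnajc5g, Cct6b, Hsf5 and Hsf2bp. Of the 9 genes 6 were higher in left EC and 3 in right EC, 0 had an unadjusted p under 0.05, and the median size of the log2 fold was 0.04, against 0.03 for the other 58 chaperone members. With Hspa2, known from spermatogenesis and from brain, it was 7 of 10 higher in left EC and 3 in right EC, with a median size of 0.05. Of the 10 genes 1 had an unadjusted p under 0.05 (Hspa2, or 10%), against 7.87% of all genes. The extremes of the Dnajb class, Dnajb8 at 0.13 and Dnajb3 at -0.14, both belong to it. Levels of these genes in EC were not analysed here.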
